A study of Mus musculus with 9 samples.

Results

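Branched-chain amino acid and ketone catabolism is described here through 29 genes among the 24964 of the count table. They are the genes whose symbols stand on a list that covers the breakdown of leucine, isoleucine and valine, the use of ketone bodies, and adjoining steps for glutamate, GABA and aldehydes. All 29 symbols were found, and all 29 passed the filter on low counts. The hearts came from 9 male C57BL/6JR mice, with 3 mice in each of 3 groups. The labels give an age of 8 weeks in all 3 groups, and the age when the heart was taken may differ between them. At 28 d and at 7 d after the operation, hearts were taken from mice whose left anterior descending coronary artery had been tied, which infarcts part of the left ventricle (myocardial infarction, MI). They were compared with hearts of sham-operated mice, which went through the same surgery without the ligation. The labels name no transgene or drug, give the tissue only as heart, without the part of the ventricle sampled, and do not say when the sham hearts were taken.

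The heart takes up the branched-chain amino acids leucine, isoleucine and valine, moves their amino group to 2-oxoglutarate, and oxidises the remaining keto acids in mitochondria. The branched-chain keto acid dehydrogenase complex is the committed step, switched off by a kinase and on by a phosphatase, and the later steps end in acetyl-CoA, acetoacetate or succinyl-CoA. Ketone bodies made by the liver enter the same mitochondria and are turned into acetyl-CoA, so heart muscle is known as a steady user of both fuels.

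Libraries held 12351525 to 19238101 counts, and a library gave the 29 genes 0.176 to 0.675% of its counts. Levels are CPM on the TMM-scaled library total, listed in the order of replicates 1, 2 and 3, and a mean carries the SD over a group's 3 libraries. A log2 fold change (log2 FC) carries its SE from edgeR's quasi-likelihood test over 14347 genes, and "rose", "fell" and "passed" mean a Benjamini-Hochberg adjusted p under 0.05. None of the cardiomyocyte, fibroblast or macrophage markers was at 0 in any library. The summed level of the 16 cardiomyocyte markers was 44050 to 78680 CPM at 28 d, 18380 to 23070 CPM at 7 d and 130600 to 134500 CPM in sham hearts. The sum for 10 fibroblast markers was 6427 to 12510 CPM at 28 d, 36380 to 47460 CPM at 7 d and 2331 to 2394 CPM in sham hearts, and that for 10 monocyte and macrophage markers 844 to 1384, 4051 to 5063 and 494 to 553 CPM in the same order. Of 10 endothelial markers 8 were lower at 28 d and 6 at 7 d, and of 8 smooth muscle and pericyte markers 3 were lower and 4 higher at 28 d and 3 lower and 3 higher at 7 d. In bulk tissue, fewer cells of a type and less RNA per cell cannot be told apart, and the part of these markers in the results below was not tested. In 3 libraries, MI 28 d replicates 1 and 3 and MI 7 d replicate 3, the adipocyte gene Adipoq stood at 130.4, 122 and 217 CPM, against 0.422 to 3.12 CPM in the other 6 libraries. The sum of 10 adipocyte markers was 2397 and 2088 CPM in those libraries at 28 d and 3486 CPM in that at 7 d, against 170.4 to 624 CPM elsewhere. Most of the sum elsewhere came from 1 marker, Fabp4, which stood at 594 to 614 CPM in sham hearts. Up to 2 of the 10 (Lep and Ucp1) were at 0 in a library.

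At 28 d, 26 of the 29 members were lower than in sham hearts and 2 were higher (Bcat1 and Abat). Over all tested genes, 25.6% were lower and 29.5% higher in that comparison, 55.1% in either direction. At 7 d, 27 members were lower than in sham hearts and 1 was higher (Bcat1), against 35.4% lower and 39.0% higher, 74.4% in either direction, over all tested genes. Between the times the order turned, with 26 members higher at 28 d than at 7 d and 1 lower (Bcat1), against 29.1% higher and 26.1% lower, 55.2% in either direction. At 28 d, 26 members lay below sham and 2 above it with no overlap of the 3 libraries of each group, against 31.7% and 34.7% of all tested genes. At 7 d, 28 lay below and 1 above, against 38.2% and 42.6%. At 28 d, 25 lay above the 7 d libraries and 2 below them, against 30.9% and 28.9%. The median log2 FC of the members was -1.09 at 28 d and -2.22 at 7 d against sham, and 1.13 at 28 d against 7 d, beside 0.05, 0.06 and 0.03 over all tested genes. The 2 comparisons with sham share the sham libraries. With library size alone as the scaling, 26.0% of the genes called at 28 d and 32.6% of those called at 7 d were lower than sham, against 46.5% and 47.5% with TMM, and 24 members were lower and 2 higher at 28 d and 26 lower and 2 higher at 7 d. Without the 3 Adipoq-rich libraries, 26 members were lower and 1 higher at 28 d, 27 and 1 at 7 d, and 25 higher and 1 lower at 28 d against 7 d, with 1 library left at 28 d, whose spread is taken as that of the other groups.

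**Figure D1:**
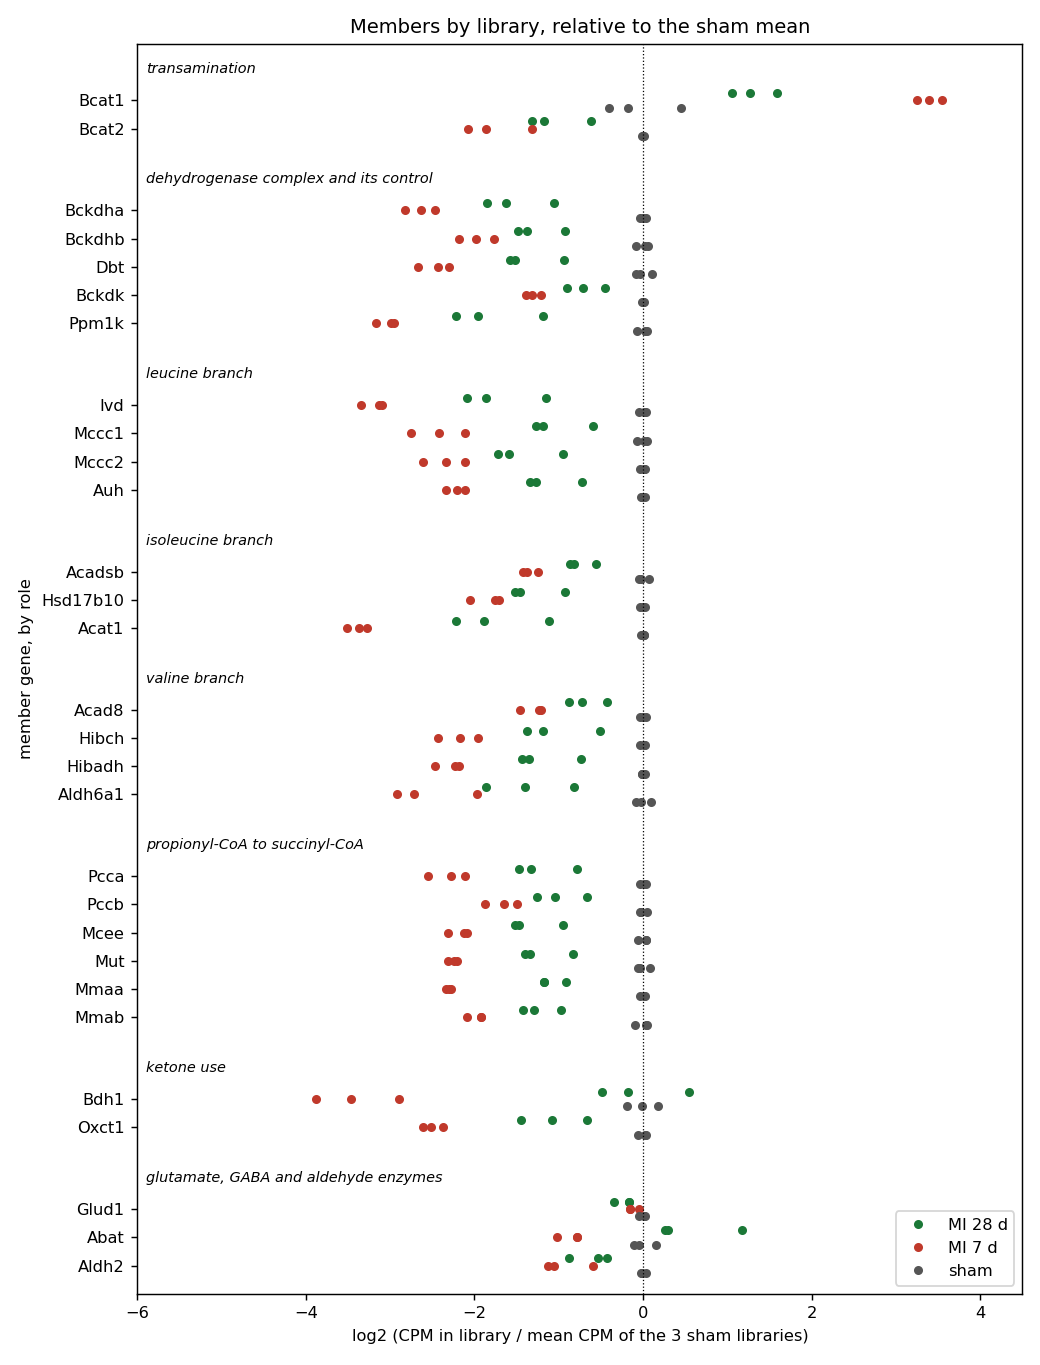
Level of each member in each library as the log2 ratio to the mean of the 3 sham libraries, by role in the pathway; green points are MI 28 d, red MI 7 d and grey sham. Most members lie furthest left at 7 d and between that and sham at 28 d, while Bcat1 lies to the right of sham at both times and Bdh1 overlaps sham at 28 d.

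The first step of the pathway is carried by a pair of aminotransferases that went opposite ways. Bcat1, on chr6:144993835-145076184 of GRCm38 (mm10), encodes the cytosolic enzyme, and Bcat2, on chr7:45570153-45589711, the mitochondrial one that heart muscle mainly uses. Bcat1 stood at 4.05, 3.23 and 2.78 CPM at 28 d, 15.7, 14.1 and 12.8 CPM at 7 d and 1.83, 1.01 and 1.18 CPM in sham hearts. Its groups did not overlap, with the highest values at 7 d and the lowest in sham hearts, where it rested on 11 to 21 counts a library. It was higher at 28 d (log2 FC 1.31 ± 0.25, edgeR adjusted p = 0.00173) and at 7 d (log2 FC 3.39 ± 0.24, edgeR adjusted p = 1.2e-06), and lower at 28 d than at 7 d (log2 FC -2.08 ± 0.21, edgeR adjusted p = 4.15e-05). Bcat2 stood at 103, 63.7 and 70 CPM at 28 d, 43.5, 37.5 and 63.8 CPM at 7 d and 157, 159.5 and 159 CPM in sham hearts. Every MI library was below every sham library, and the range at 28 d met that at 7 d, whose highest value came from the Adipoq-rich replicate 3. Bcat2 fell at 28 d (log2 FC -1.01 ± 0.21, edgeR adjusted p = 0.00329) and at 7 d (log2 FC -1.71 ± 0.22, edgeR adjusted p = 5.69e-05). Its difference between the MI groups (log2 FC 0.71 ± 0.21, edgeR adjusted p = 0.0184) did not pass without MI 28 d replicate 1 (log2 FC 0.46, edgeR adjusted p = 0.0718), MI 7 d replicate 1 (0.64, adjusted p = 0.0661) or MI 7 d replicate 2 (0.55, adjusted p = 0.0674), or with only the MI groups in the fit (0.67, adjusted p = 0.0687). Over all its alternatives the edgeR or DESeq2 adjusted p was 0.000708 to 0.0718.

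Within a library, the ratio of Bcat1 to Bcat2 counts does not depend on scaling. It was 0.0405, 0.0525 and 0.0413 at 28 d, 0.363, 0.377 and 0.202 at 7 d and 0.0128, 0.00749 and 0.00851 in sham hearts, with 2 added to each count. The 3 groups did not overlap. The difference in mean log2 ratio was 2.25 at 28 d and 5.02 at 7 d against sham, and -2.76 at 28 d against 7 d. Each had an exact two-sided permutation p of 0.1, the smallest that 3 libraries against 3 can give. Per kilobase of exon, Bcat2 was the more abundant of the pair in all groups. In CPM per kb it averaged 20.2 ± 5.41 at 28 d, 12.4 ± 3.54 at 7 d and 40.6 ± 0.307 in sham hearts, beside 0.359 ± 0.069 at 28 d, 1.52 ± 0.158 at 7 d and 0.144 ± 0.0464 in sham hearts for Bcat1.

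The bases before the gene start of Bcat1, the member that rose at both times, are shown beside those of Ivd, Aldh6a1 and Mmab, which fell at both times and whose upstream windows hold the most CCAAT boxes among the members. A CCAAT box, searched as CCAAT on either strand (ATTGG on the strand shown), is a common promoter element and is in capitals. Each line gives 250 bases before the start, 5′ to 3′, from RefSeq on GRCm38.p6, whose starts can differ from those of the gene models used for coordinates, at chr6:145076158-145076407 on the minus strand for Bcat1, chr2:118861744-118861993 on the plus strand for Ivd, chr12:84451025-84451274 on the minus strand for Aldh6a1 and chr5:114444028-114444277 on the minus strand for Mmab.
Bcat1: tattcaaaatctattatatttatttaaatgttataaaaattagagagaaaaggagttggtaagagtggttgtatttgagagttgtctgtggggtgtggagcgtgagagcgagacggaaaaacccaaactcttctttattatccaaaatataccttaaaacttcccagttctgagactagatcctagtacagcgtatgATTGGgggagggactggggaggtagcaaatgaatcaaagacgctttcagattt
Ivd: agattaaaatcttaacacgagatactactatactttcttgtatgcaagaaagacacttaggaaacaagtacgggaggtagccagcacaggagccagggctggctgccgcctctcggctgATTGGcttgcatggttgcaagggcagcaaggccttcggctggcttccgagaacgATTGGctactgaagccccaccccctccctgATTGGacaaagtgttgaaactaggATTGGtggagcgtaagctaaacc
Aldh6a1: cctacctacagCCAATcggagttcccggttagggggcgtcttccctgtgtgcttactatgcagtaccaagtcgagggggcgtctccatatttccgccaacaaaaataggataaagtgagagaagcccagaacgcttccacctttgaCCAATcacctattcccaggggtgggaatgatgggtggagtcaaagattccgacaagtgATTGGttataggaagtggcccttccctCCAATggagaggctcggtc
Mmab: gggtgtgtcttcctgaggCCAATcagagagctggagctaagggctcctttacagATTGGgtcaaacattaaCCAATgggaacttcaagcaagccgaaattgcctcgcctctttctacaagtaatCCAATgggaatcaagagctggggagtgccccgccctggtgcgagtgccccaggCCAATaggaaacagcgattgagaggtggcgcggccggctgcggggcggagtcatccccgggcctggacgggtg
The promoter table matched 24 of the 29 members (all but Abat, Acat1, Aldh2, Dbt and Mut), with 31 windows because some genes have more than 1 start. At least 1 CCAAT box was found in 16 of these 31 windows, belonging to 14 members, against 33.8% of 32851 windows over all genes. Other members that fell at both times had more, as many or fewer boxes than the 1 in the window shown for Bcat1. Mccc1 and Mccc2 held 3 each, and Ppm1k and 1 window of Bckdhb held 2. Hibadh and Bckdk, among others, held 1, and Oxct1, Bckdha, Hibch and Auh, among others, held 0. A second window of Bcat1 held 0 boxes and a second one of Aldh6a1 held 1, and neither is shown. At least 4 boxes were found in 3 of the 31 windows, against 0.84% of all windows. They are the windows shown for Ivd, Aldh6a1 and Mmab, which were picked for their boxes, so this count is not a test. In the Mmab window the boxes begin 232, 196, 179, 126 and 73 bases before the start, and in the Ivd window 131, 77, 47 and 23 bases before it. The nuclear receptor half-site AGGTCA (either strand) was in 5 of the 31 windows and 14% of all windows, and the E-box CACGTG in 1 and 6.02%, each counted whether or not it overlaps another motif. These motifs were picked after the values were known, and a match is a description of letters, not of a bound factor.

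The dehydrogenase complex takes the keto acids of all 3 amino acids. Its genes fell together at both times, and the log2 FC of its activating phosphatase was further below 0 than that of its inhibiting kinase. Bckdha, on chr7:25629946-25658981, encodes the alpha subunit of the E1 component. It stood at 202, 136 and 116 CPM at 28 d, 67.5, 59 and 76 CPM at 7 d and 429, 408.5 and 419 CPM in sham hearts, with no overlap between any groups (28 d: log2 FC -1.47 ± 0.19, edgeR adjusted p = 0.00023; 7 d: log2 FC -2.63 ± 0.19, edgeR adjusted p = 1.56e-06). On the opposite strand B3gnt8 shares 61.7% of the exon bases of Bckdha. B3gnt8 had 260 counts at 28 d, 1154 at 7 d and 86 in sham hearts over 3 libraries, against 7244, 4174 and 14321 for Bckdha, and reads of the shared stretch cannot be told apart where the strand setting is unknown. Of the other members, 7 (Aldh6a1, Bcat2, Bdh1, Oxct1, Pcca, Mut and Mccc1) share 1.81 to 18.6% of their exon bases with a gene on the opposite strand. Bckdhb, the beta subunit of E1, stood at 38.4, 26.1 and 28.1 CPM at 28 d, 18.4, 16 and 21.4 CPM at 7 d and 68.5, 73.8 and 75.8 CPM in sham hearts. It was lowest at 7 d and intermediate at 28 d without overlap, with a log2 FC of -1.24 at 28 d and -1.97 at 7 d against sham. Dbt, which encodes the E2 core, stood at 57.2, 36.9 and 38.4 CPM at 28 d, 17.3, 20.4 and 22.2 CPM at 7 d and 107, 104 and 118 CPM in sham hearts. The same order held for Dbt without overlap, with a log2 FC of -1.31 at 28 d and -2.46 at 7 d. Dld, the E3 component shared with other dehydrogenases and no member of the list, averaged 299.7 ± 81.6 CPM at 28 d, 124 ± 12.5 CPM at 7 d and 619 ± 15 CPM in sham hearts (log2 FC -1.05 at 28 d and -2.32 at 7 d).

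Bckdk, on chr7:127904082-127910221, encodes the kinase that inactivates the complex. It stood at 106, 88.8 and 77.5 CPM at 28 d, 62.5, 55.5 and 58.1 CPM at 7 d and 145, 146 and 144 CPM in sham hearts, with no overlap between groups. Its fall was 1.6-fold at 28 d (log2 FC -0.67 ± 0.11, edgeR adjusted p = 0.000727) and 2.47-fold at 7 d (log2 FC -1.30 ± 0.11, edgeR adjusted p = 3.34e-06). Ppm1k, on chr6:57506502-57535468, encodes the phosphatase that reactivates it. It stood at 48.8, 28.5 and 23.8 CPM at 28 d, 14.3, 14 and 12.4 CPM at 7 d and 106, 113 and 115 CPM in sham hearts, again without overlap. Its fall was 3.29-fold at 28 d (log2 FC -1.72 ± 0.22, edgeR adjusted p = 0.000246), the largest absolute log2 FC of the 29 members in that comparison, and 8.17-fold at 7 d (log2 FC -3.03 ± 0.23, edgeR adjusted p = 2.01e-06). Within a library, the ratio of Bckdk to Ppm1k counts was 2.17, 3.11 and 3.25 at 28 d, 4.34, 3.94 and 4.67 at 7 d and 1.37, 1.29 and 1.26 in sham hearts. The groups did not overlap, with the ratio highest at 7 d and lowest in sham hearts. The difference in mean log2 ratio was 1.10 at 28 d and 1.72 at 7 d against sham, and -0.62 at 28 d against 7 d, each with an exact two-sided permutation p of 0.1, the smallest possible. Leaving out any library kept these differences between 0.99 and 1.28 at 28 d, 1.66 and 1.78 at 7 d, and -0.73 and -0.44 between the MI groups.

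**Figure D2:**
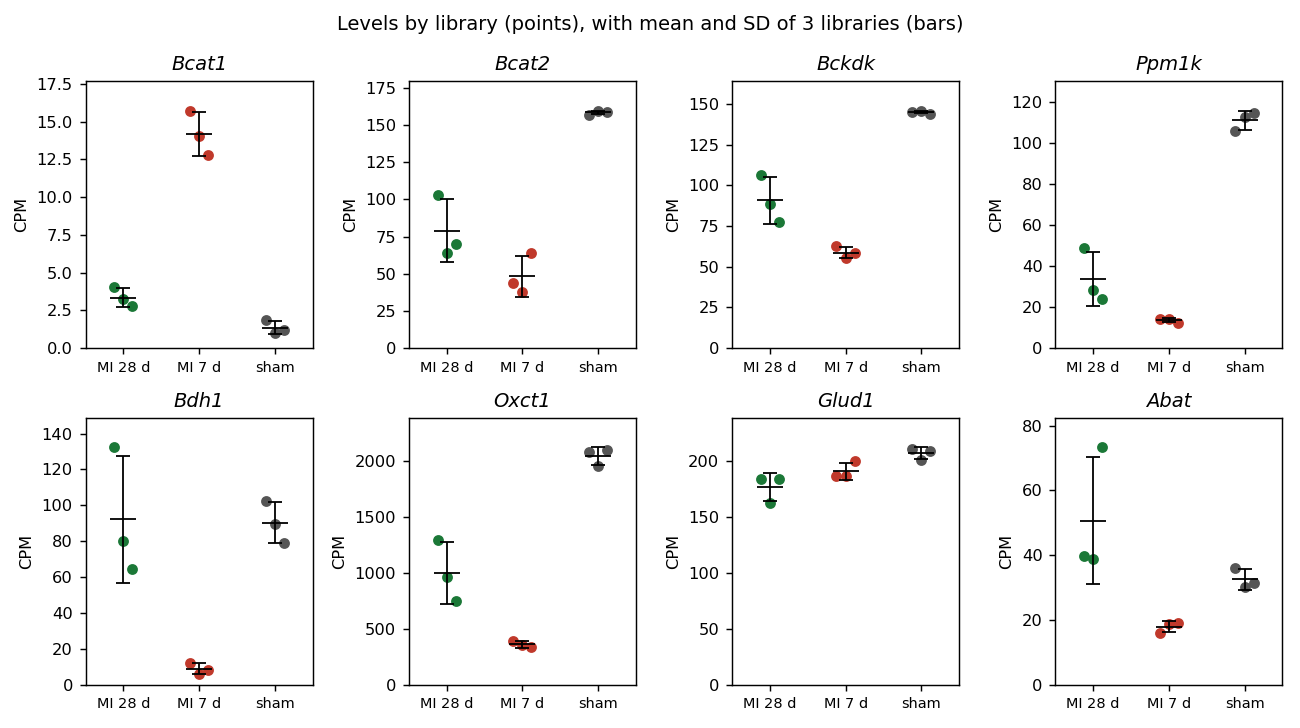
CPM of 8 members in each library, with the mean and SD of 3 libraries per group; columns run from MI 28 d to MI 7 d to sham. Bcat1 peaks at 7 d, Bcat2, Bckdk, Ppm1k and Oxct1 are lowest at 7 d, Bdh1 at 28 d spans its sham values, and 1 MI 28 d library sets the spread of Abat.

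The leucine branch runs through Ivd (isovaleryl-CoA dehydrogenase), the carboxylase subunits Mccc1 and Mccc2, and Auh, the hydratase after them. All 4 genes fell at both times and were higher at 28 d than at 7 d. Ivd, on chr2:118861954-118882909, stood at 311, 189 and 162 CPM at 28 d, 78.6, 67.5 and 80.3 CPM at 7 d and 695, 664 and 707 CPM in sham hearts. It had the deepest fall of the branch, 3.13-fold at 28 d (log2 FC -1.64 ± 0.21, edgeR adjusted p = 0.00025) and 9.13-fold at 7 d (log2 FC -3.19 ± 0.22, edgeR adjusted p = 1.23e-06). Mccc1, the biotin-carrying subunit, averaged 81.7 ± 22 CPM at 28 d, 30.5 ± 6.65 CPM at 7 d and 161 ± 7.01 CPM in sham hearts. Mccc2, its partner, averaged 36.1 ± 10.9 CPM at 28 d, 18.6 ± 3.18 CPM at 7 d and 94 ± 2.17 CPM in sham hearts. Auh averaged 50.1 ± 12.3 CPM at 28 d, 22.9 ± 1.78 CPM at 7 d and 106 ± 1.72 CPM in sham hearts. For Mccc1, Mccc2 and Auh no sham library met an MI library, and the log2 FC lay between -1.38 and -0.98 at 28 d and between -2.40 and -2.22 at 7 d.

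In the isoleucine branch Acadsb (short/branched-chain acyl-CoA dehydrogenase), Hsd17b10 (the hydroxyacyl-CoA dehydrogenase of this branch, also part of mitochondrial RNase P) and Acat1 all fell at both times. Acat1, on chr9:53580522-53610382, encodes the thiolase that ends the branch and also splits acetoacetyl-CoA from ketone bodies. It stood at 396.5, 232 and 184.5 CPM at 28 d, 89, 75.7 and 82.9 CPM at 7 d and 867, 848 and 864 CPM in sham hearts. Its groups did not overlap, and MI 28 d replicate 1 was well above the other 28 d libraries. The fall was 3.17-fold at 28 d (log2 FC -1.67 ± 0.24, edgeR adjusted p = 0.000397) and 10.4-fold at 7 d (log2 FC -3.38 ± 0.25, edgeR adjusted p = 1.69e-06), the deepest log2 FC below 0 of any member at 7 d. Hsd17b10 stood at 87.4, 58 and 60.8 CPM at 28 d, 50.8, 40.3 and 49.1 CPM at 7 d and 163, 167 and 169 CPM in sham hearts. It fell at 28 d (log2 FC -1.28) and at 7 d (-1.83). Its rise between 7 d and 28 d was small (log2 FC 0.56 ± 0.15, edgeR adjusted p = 0.0116). The rise was 0.34 without MI 28 d replicate 1, where it still passed, and did not pass with only the MI groups in the fit (0.52, edgeR adjusted p = 0.0521). Without the Adipoq-rich libraries, which leaves 1 library at 28 d, the log2 FC of Hsd17b10 was 0.34. Its adjusted p over all alternatives was 0.00211 to 0.0521. Acadsb averaged 118 ± 14.2 CPM at 28 d, 77.3 ± 4.95 CPM at 7 d and 197 ± 8.48 CPM in sham hearts, with the smallest fall of the branch (log2 FC -0.74 at 28 d and -1.35 at 7 d).

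In the valine branch Acad8 (isobutyryl-CoA dehydrogenase), Hibch (the hydrolase that frees 3-hydroxyisobutyrate), Hibadh (its dehydrogenase) and Aldh6a1 (methylmalonate semialdehyde dehydrogenase) fell at both times. Acad8 averaged 39.5 ± 6.49 CPM at 28 d, 25.5 ± 2.36 CPM at 7 d and 62.6 ± 1.55 CPM in sham hearts, with a log2 FC of -0.67 at 28 d and -1.30 at 7 d. Hibch averaged 63.1 ± 21.1 CPM at 28 d, 27.5 ± 4.54 CPM at 7 d and 124 ± 2.31 CPM in sham hearts. Hibadh averaged 171 ± 47.8 CPM at 28 d, 77.2 ± 8.11 CPM at 7 d and 377 ± 4.85 CPM in sham hearts. Hibch, Hibadh and Aldh6a1 had changes further from 0, with a log2 FC of -1.30 to -0.97 at 28 d and -2.47 to -2.17 at 7 d. Aldh6a1, given in full after its values were seen, had the widest relative spread of any member at 7 d (coefficient of variation 37.0%). It stood at 181, 87.8 and 121 CPM at 28 d, 42.3, 48.4 and 81.9 CPM at 7 d and 315, 302 and 341 CPM in sham hearts. The highest value at 7 d was in the Adipoq-rich library, and at 28 d the library low in Adipoq was the lowest; the part of adipocyte RNA was not tested.

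Propionyl-CoA from isoleucine and valine becomes succinyl-CoA through the biotin-dependent carboxylase (Pcca and Pccb), an epimerase (Mcee) and the cobalamin-dependent mutase (Mut), which needs the cobalamin proteins Mmaa and Mmab. All 6 genes fell at both times, and all 6 were higher at 28 d than at 7 d without overlap. The log2 FC of the 6 was -1.29 to -0.97 at 28 d and -2.30 to -1.67 at 7 d. Mmaa had the smallest standard errors of the 6 in each comparison with sham. It averaged 28.8 ± 3.08 CPM at 28 d, 12.3 ± 0.245 CPM at 7 d and 61.1 ± 1.29 CPM in sham hearts (28 d: log2 FC -1.08 ± 0.09, edgeR adjusted p = 2.09e-05; 7 d: log2 FC -2.30 ± 0.09, edgeR adjusted p = 6.51e-08). Pcca averaged 62.7 ± 16.6 CPM at 28 d, 28.4 ± 4.28 CPM at 7 d and 140.3 ± 3.7 CPM in sham hearts. Mcee averaged 30.1 ± 6.97 CPM at 28 d, 16.3 ± 1.35 CPM at 7 d and 73.5 ± 2.8 CPM in sham hearts. Mmab averaged 24.7 ± 4.06 CPM at 28 d, 14.6 ± 0.913 CPM at 7 d and 57.5 ± 3.08 CPM in sham hearts. Mut averaged 69.6 ± 16 CPM at 28 d, 32.7 ± 1.22 CPM at 7 d and 156 ± 8.51 CPM in sham hearts, and Pccb, the least reduced at both times, 92.1 ± 19.8 CPM at 28 d, 56.6 ± 7.32 CPM at 7 d and 179.9 ± 5.42 CPM in sham hearts.

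Of the pair of ketone-use genes, both fell at 7 d, and at 28 d Oxct1 fell while Bdh1 did not pass. Oxct1, on chr15:4026383-4155344, encodes the mitochondrial transferase that activates acetoacetate and commits ketone bodies to oxidation. It stood at 1296, 969 and 748 CPM at 28 d, 395, 358 and 335 CPM at 7 d and 2085, 1957 and 2100.0 CPM in sham hearts. The groups did not overlap, with the lowest values at 7 d and intermediate ones at 28 d. It fell at 28 d (log2 FC -1.03 ± 0.18, edgeR adjusted p = 0.00108) and at 7 d (log2 FC -2.50 ± 0.19, edgeR adjusted p = 1.63e-06). Bdh1, on chr16:31422280-31458901, encodes the dehydrogenase that turns 3-hydroxybutyrate into acetoacetate. It stood at 132, 80.1 and 64.3 CPM at 28 d, 12.2, 6.14 and 8.18 CPM at 7 d and 102, 89.5 and 79.3 CPM in sham hearts. All 7 d libraries were far below all others, while the 28 d and sham ranges overlapped, with 1 library at 28 d above and 1 below all sham values. It fell 10.2-fold at 7 d (log2 FC -3.35 ± 0.31, edgeR adjusted p = 6.55e-06) and was 10.4-fold higher at 28 d than at 7 d (log2 FC 3.38 ± 0.31, edgeR adjusted p = 2.55e-05), the largest difference of any member between the MI groups. At 28 d against sham it did not pass (log2 FC 0.03 ± 0.28, edgeR adjusted p = 0.939), and the sign turned with DESeq2, with DESeq2-type size factors, under the replicate block, without the Adipoq-rich libraries, without sham replicate 3 and without MI 28 d replicate 1 (log2 FC -0.33, edgeR adjusted p = 0.234). Its adjusted p over all alternatives was 0.234 to 0.988.

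The ratio of Bdh1 to Oxct1 counts, added after the values were seen, was 0.102, 0.0828 and 0.0862 at 28 d, 0.0311, 0.0174 and 0.0247 at 7 d and 0.0492, 0.0458 and 0.0378 in sham hearts. The 3 groups did not overlap, with 28 d highest and 7 d lowest. The difference in mean log2 ratio was 1.03 at 28 d and -0.89 at 7 d against sham, and 1.92 at 28 d against 7 d, each with an exact two-sided permutation p of 0.1, the smallest possible. Per kilobase of exon, Oxct1 was the most abundant member in all 3 groups, with 29.2 ± 2.37% of the members' summed level per kb at 28 d, 21.8 ± 2.6% at 7 d and 27.2 ± 0.476% in sham hearts.

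**Figure D3:**
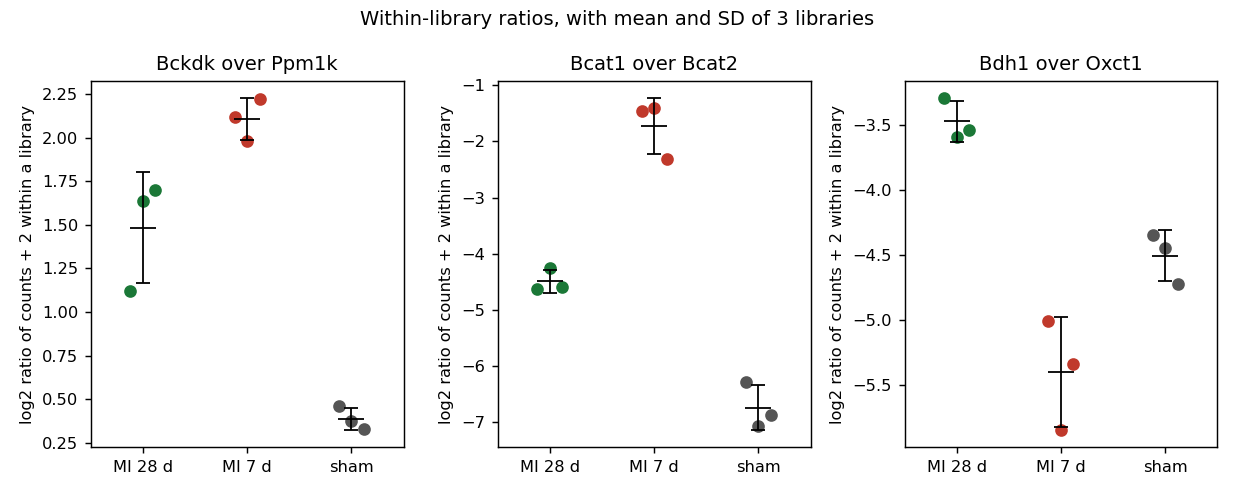
Log2 ratios of counts within each library (2 added to each count) for the kinase over the phosphatase, the cytosolic over the mitochondrial aminotransferase, and Bdh1 over Oxct1, with means and SD of 3 libraries. In the left and middle panels MI 7 d is highest and sham lowest, and in the right panel MI 28 d is highest and MI 7 d lowest.

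The log2 FC of the glutamate, GABA and aldehyde enzymes lay between -0.60 and 0.64 at 28 d and between -0.91 and -0.12 at 7 d. Glud1, on chr14:34310727-34345265, encodes glutamate dehydrogenase, which returns the collected amino groups as ammonia. It stood at 184, 163 and 184 CPM at 28 d, 186.5, 186.5 and 199.9 CPM at 7 d and 211, 201 and 209 CPM in sham hearts. The groups lay close together without overlap, sham highest. At 28 d it was slightly lower than in sham hearts (log2 FC -0.23 ± 0.08, edgeR adjusted p = 0.0345). At 7 d it did not pass (log2 FC -0.12 ± 0.08, edgeR adjusted p = 0.202), and with library size alone as the scaling the sign turned at both times, to 0.02 at 28 d (edgeR adjusted p = 0.833) and 0.22 at 7 d (adjusted p = 0.0403). The 28 d call was also lost without any 1 of the sham libraries (adjusted p = 0.056 to 0.093), without MI 28 d replicate 2 (log2 FC -0.17, adjusted p = 0.124), with no filter (adjusted p = 0.0506) and with only the 2 groups in the fit (adjusted p = 0.0513). Over all alternatives the adjusted p was 0.00338 to 0.833 at 28 d and 0.0403 to 0.351 at 7 d. Per kilobase Glud1 took 4.7 ± 1.05% of the members' summed level at 28 d, 10 ± 0.508% at 7 d and 2.42 ± 0.0291% in sham hearts. It ranked 6 at 28 d, 2 at 7 d and 10 in sham hearts among the 29.

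Abat, on chr16:8513429-8621568, encodes the GABA transaminase, which also acts in valine breakdown. It stood at 39.8, 38.8 and 73.3 CPM at 28 d, 16, 18.9 and 19 CPM at 7 d and 36, 30.2 and 31.4 CPM in sham hearts. The 7 d libraries were below all sham libraries and the 28 d libraries above them. MI 28 d replicate 3 was nearly double the other 28 d libraries. That library is Adipoq-rich, as is replicate 1, which stood close to replicate 2, the library low in Adipoq. At 7 d the Adipoq-rich replicate 3 stood close to replicate 2. The part of adipocyte RNA was not tested. Abat fell at 7 d (log2 FC -0.86 ± 0.23, edgeR adjusted p = 0.00676) and rose at 28 d (log2 FC 0.64 ± 0.22, edgeR adjusted p = 0.0349), the direction opposite to most members. The rise at 28 d was 0.27 without MI 28 d replicate 3 (edgeR adjusted p = 0.0602). It was 0.24 without the Adipoq-rich libraries, which leaves 1 library at 28 d. The rise also did not pass with only the 2 groups in the fit (0.65, edgeR adjusted p = 0.0614) or without any 1 of the sham libraries (0.58 to 0.71, adjusted p = 0.06 to 0.112). Over all alternatives its adjusted p was 0.0119 to 0.164. With library size alone the fall at 7 d was -0.52 (edgeR adjusted p = 0.0869), where the adjusted p over all alternatives was 3.47e-05 to 0.0869.

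Aldh2, on chr5:121566027-121593824, encodes the mitochondrial dehydrogenase that clears acetaldehyde and lipid aldehydes. It stood at 288, 211 and 269 CPM at 28 d, 177, 186.5 and 258 CPM at 7 d and 385, 381 and 398.5 CPM in sham hearts. All MI libraries were below all sham libraries, and the MI groups overlapped, with the highest 7 d value in the Adipoq-rich library. It fell at 28 d (log2 FC -0.60 ± 0.16, edgeR adjusted p = 0.00994) and at 7 d (log2 FC -0.91 ± 0.16, edgeR adjusted p = 0.000526). With library size alone these were -0.35 at 28 d (edgeR adjusted p = 0.0859) and -0.57 at 7 d (adjusted p = 0.01). The difference between the MI groups did not pass (log2 FC 0.30 ± 0.16, edgeR adjusted p = 0.128), but passed without MI 7 d replicate 3 (0.49, edgeR adjusted p = 0.0153) and without MI 28 d replicate 2 (0.43, adjusted p = 0.0474). The adjusted p for that difference was 0.0153 to 0.348 over all alternatives.

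Spread within a group differed between groups. The median coefficient of variation of the members was 25.7% at 28 d, 10.4% at 7 d and 3.01% in sham hearts. At 28 d, replicate 1 had the highest level of 28 of the 29 members, and its cardiomyocyte marker sum (78680 CPM) was also above those of replicates 2 (58560 CPM) and 3 (44050 CPM). The members themselves summed to 4573, 3190 and 2948 CPM in those 3 libraries. At 7 d they summed to 1729, 1603 and 1862 CPM beside cardiomyocyte sums of 23070, 18490 and 18380 CPM, and in sham hearts to 7655, 7397 and 7771 CPM.

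Each member was also set against the mean log2 level of the 16 cardiomyocyte markers in its own library, which removes the scaling. Of those markers, 12 of 16 were lower at 28 d and 16 of 16 at 7 d (mean log2 FC -0.95 and -2.65). The median member stood at 0.0277, 0.0261 and 0.0366 times the markers' level at 28 d, 0.0354, 0.0337 and 0.0489 at 7 d and 0.0306, 0.0308 and 0.0304 in sham hearts. The groups overlapped at 28 d against sham (log2 difference -0.04, or -0.19 to 0.06 without any 1 library), and at 7 d all libraries were above sham (0.34, or 0.17 to 0.44). Relative to the markers, 8 members were lower at 28 d without overlap with sham, beside 3.9% of all tested genes, and 7 were higher, beside 81.0%. At 7 d, 4 members were lower (Ppm1k, Ivd, Acat1 and Bdh1), beside 1.86% of all tested genes, and 21 were higher, beside 95.2%. At 28 d against 7 d, 21 members were lower relative to the markers, beside 88.3%, and 1 was higher (Bdh1), beside 0.606%. The 8 lower at 28 d against sham were Bckdha, Dbt, Ppm1k, Ivd, Mccc2, Acat1, Pcca and Mcee. With the median of the markers in place of their mean, added after the values were seen, 4 were lower at 28 d (Bckdha, Ppm1k, Ivd and Acat1), beside 1.75% of all tested genes, and 13 were higher, beside 90.5%. At 7 d, 1 was then lower (Acat1), beside 1.12%, and 23 were higher, beside 96.7%. At 28 d against 7 d the counts were again 21 lower, beside 88.0%, and 1 higher, beside 0.599%. Acat1 moved by -0.74 at 28 d and -0.72 at 7 d relative to the marker mean, and Ppm1k by -0.78 and -0.37. Oxct1 moved by -0.06 at 28 d, where the groups overlapped, and 0.16 at 7 d. Bdh1 moved by 0.97 at 28 d and -0.73 at 7 d, and Glud1 by 0.78 and 2.54.

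**Figure D4:**
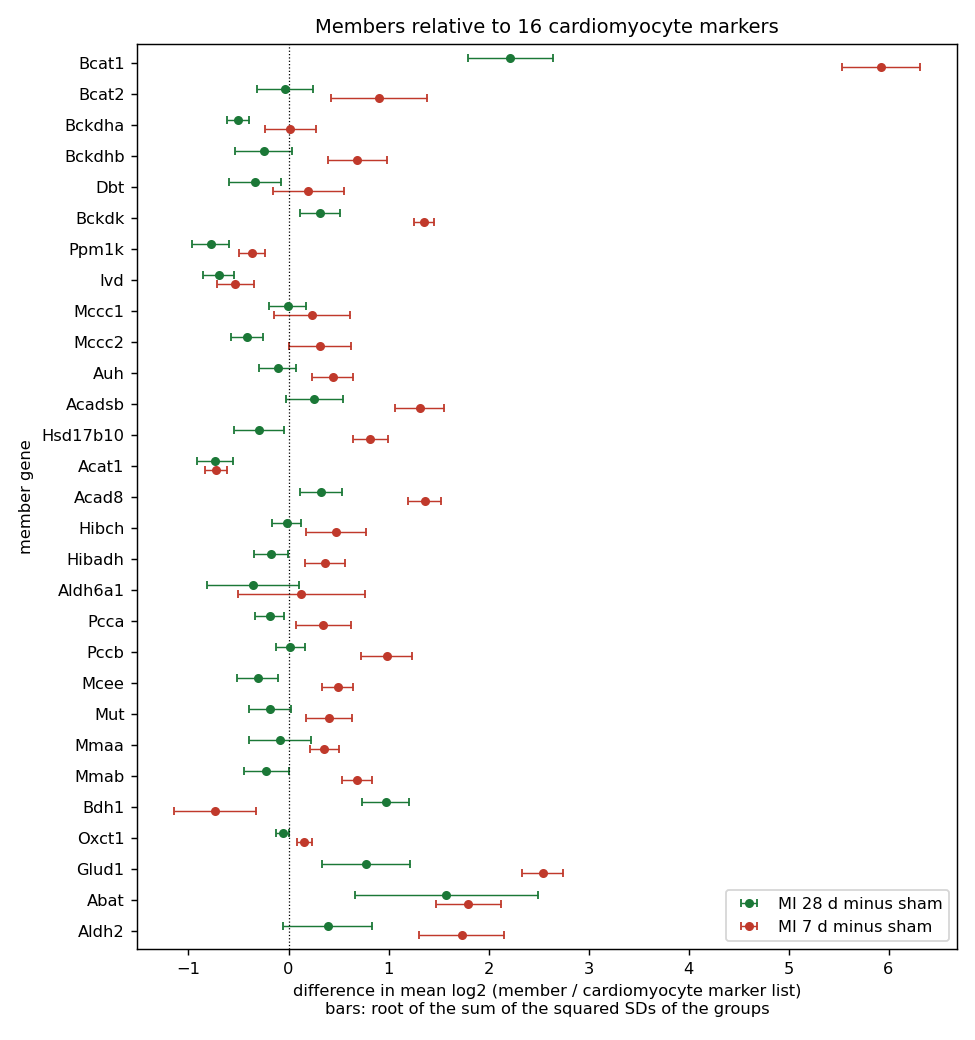
Difference from sham in the mean log2 ratio of each member to the cardiomyocyte marker list, for MI 28 d (green) and MI 7 d (red); bars are the root of the summed squared SDs of the groups. Acat1, Ivd and Ppm1k lie below 0 at both times, Bdh1 changes side, and most members lie above 0 at 7 d and near 0 at 28 d.

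Other genes of these pathways were followed as lists that hold no member. Their counts stand beside shares over all tested genes of 25.6% lower and 29.5% higher at 28 d, and 35.4% lower and 39.0% higher at 7 d. Among enzymes that branched-chain amino acid breakdown shares with fatty acid oxidation and other routes, 18 of 20 were tested. At 28 d, 13 fell and 1 rose, and at 7 d, 13 fell and 0 rose, with a median log2 FC of -0.90 and -1.39. The thiolase gene Acaa2 averaged 225 ± 106 CPM at 28 d, 79.5 ± 8.77 CPM at 7 d and 1184 ± 32.8 CPM in sham hearts and fell the furthest of them (log2 FC -2.40 at 28 d and -3.90 at 7 d). Acat2, the cytosolic thiolase, was the gene that rose at 28 d. It stood at 14.5, 4.09 and 10.4 CPM at 28 d, 6.59, 5.5 and 11.7 CPM at 7 d and 4.71, 3.77 and 3.89 CPM in sham hearts (log2 FC 1.23 at 28 d, edgeR adjusted p = 0.0381). The 28 d and sham ranges overlapped: the high values at 28 d were in the Adipoq-rich replicates 1 and 3, and replicate 2 lay within the sham range. Without the Adipoq-rich libraries, an alternative chosen after seeing the data that leaves 1 library at 28 d, the log2 FC of Acat2 was -0.02. The call was lost without replicate 1 or 3 of the 28 d group or any 1 sham library (0.80 to 1.32, edgeR adjusted p = 0.0706 to 0.139).

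Among genes for ketone synthesis, other ketone enzymes and monocarboxylate carriers, 8 of 11 were tested, with 3 lower and 3 higher at 28 d and 3 lower and 5 higher at 7 d; apart from the 5 higher, these shares were near those over all tested genes. Slc16a1, a carrier of lactate and ketone bodies, averaged 224 ± 60.1 CPM at 28 d, 78.5 ± 5.07 CPM at 7 d and 383 ± 12.7 CPM in sham hearts and fell at both times (log2 FC -0.77 and -2.28). Slc16a3, the lactate exporter, averaged 17.5 ± 1.83 CPM at 28 d, 37.1 ± 6.05 CPM at 7 d and 2.7 ± 0.387 CPM in sham hearts and rose at both (log2 FC 2.69 and 3.78). Oxct2a and Oxct2b, the germ-cell copies of Oxct1, had 0 counts in all 9 libraries.

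Of 7 genes for amino acid transport and control, 3 rose and 0 fell at 28 d, and 5 rose and 1 fell at 7 d. Slc7a5, the light chain of the large neutral amino acid carrier, averaged 20 ± 3.14 CPM at 28 d, 26.8 ± 2.5 CPM at 7 d and 8.39 ± 0.758 CPM in sham hearts, and its heavy chain Slc3a2 88 ± 5.14 CPM at 28 d, 120.4 ± 4.34 CPM at 7 d and 53.7 ± 2.38 CPM in sham hearts. Both rose at both times (log2 FC 1.25 and 0.71 at 28 d, 1.67 and 1.17 at 7 d). Slc25a44, the mitochondrial carrier of these amino acids, averaged 33.6 ± 0.902 CPM at 28 d, 30.7 ± 2.11 CPM at 7 d and 34 ± 0.78 CPM in sham hearts. It passed in no comparison of the main fit (edgeR adjusted p = 0.877 at 28 d and 0.103 at 7 d against sham, 0.162 at 28 d against 7 d). With library size alone its log2 FC at 28 d against sham turned from -0.02 to 0.23 and passed (edgeR adjusted p = 0.0428). Klf15, a transcription factor known to drive branched-chain amino acid breakdown in heart, averaged 37.1 ± 3.95 CPM at 28 d, 11 ± 4.91 CPM at 7 d and 46.3 ± 1.49 CPM in sham hearts. It fell at 7 d (log2 FC -2.08 ± 0.25, edgeR adjusted p = 3.84e-05), was higher at 28 d than at 7 d (log2 FC 1.76 ± 0.25, edgeR adjusted p = 0.000266) and did not pass at 28 d against sham (log2 FC -0.32 ± 0.24, edgeR adjusted p = 0.272). Klf15 passed there with only the groups compared (log2 FC -0.31, edgeR adjusted p = 0.0258). Without the Adipoq-rich libraries, which leaves 1 library at 28 d, its log2 FC was -0.51.

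Of 13 genes for cobalamin, biotin and lipoate supply, 8 fell and 2 rose at 28 d, and 9 fell and 3 rose at 7 d. Mmachc, which processes cobalamin after uptake, fell the most at both times (log2 FC -1.06 and -2.47). Of 10 tested genes for glutamate and GABA metabolism (12 on the list), 5 fell and 2 rose at 28 d, and 6 fell and 2 rose at 7 d. Aldh5a1, which follows Abat in GABA breakdown, averaged 21.4 ± 7.69 CPM at 28 d, 8.88 ± 0.678 CPM at 7 d and 69.4 ± 3.62 CPM in sham hearts (log2 FC -1.70 at 28 d and -2.96 at 7 d). Aldh18a1, which starts proline synthesis from glutamate, averaged 28.7 ± 3.23 CPM at 28 d, 56.1 ± 4.88 CPM at 7 d and 18.6 ± 1.31 CPM in sham hearts and rose at both times (log2 FC 0.63 and 1.59).

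Set beside lists of 18 genes each for fatty acid beta-oxidation and the TCA cycle, the members had the smaller median change at 7 d. The medians were -2.22 for the members, -3.14 for beta-oxidation and -2.61 for the TCA cycle. At 28 d they were -1.09, -1.60 and -1.18. Acaa2 and other genes stand on both the shared-enzyme and the beta-oxidation list. In those 2 comparison lists 17 of 18 and 18 of 18 genes fell at 28 d, and 18 of 18 in each at 7 d. The difference between these lists was not tested.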

How the data were processed

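The authors deposited a table of whole-number read counts per gene symbol, 1 column per library, with no normalization applied. Per the labels' protocols, TRIzol-extracted total RNA went into KAPA RNA HyperPrep libraries, and per the submitters' processing notes Trim Galore, STAR, featureCounts and the mm10 build were used. The sources used here state no versions, annotation or strand setting. Groups and replicate numbers came from the sample titles.

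Counts were tested in R 4.3.3 with edgeR 4.0.16 (filterByExpr by group with minimum count 10 and minimum total 15, TMM, quasi-likelihood test). A means model over all 9 libraries was adjusted by Benjamini-Hochberg over 14347 genes at 0.05. SE is the absolute log2 FC over the square root of F. Within-library ratios added 2 to each count. Exon lengths and gene coordinates came from GENCODE M21 (GRCm38). The fit was tested on simulated counts. Alternatives were DESeq2 1.42.0, other scalings and filters, fits of only the groups compared, a replicate block and leaving out libraries.

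The members, the other lists and the tests were chosen with earlier results of these data known. Members given library by library were the pairs and the complex named in the report and, in each comparison, the 3 members with the largest and the 3 with the smallest absolute log2 FC or in the opposite direction; from each other list only part of the genes the rule allows is named. Some genes of these lists are not reported here. The sham libraries were close to each other (chi-square over degrees of freedom of 1.67 to 1.8 for a pair) but differed by more than counting noise, and were kept as 3 replicates, 1 mouse each per the series' design text. Pairs at 7 d gave 18.8 to 29.3 and pairs at 28 d 31.4 to 71.2. The main fit takes 1 estimate of the spread for the 3 groups, although their spreads differed. Library totals of 12351525 to 19238101 counts left only Bcat1 in sham hearts on few counts.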

Additional observations from a re-analysis of the deposited data

Results flagged for a closer look

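The change from sham differed between the times for 27 of the 29 members, by edgeR's test of 28 d against 7 d, in which the sham level cancels, beside 55.2% of all tested genes in either direction. The values are the effect at 28 d minus that at 7 d on the log2 scale, positive where the level was higher at 28 d. For the aminotransferases it was -2.08 for Bcat1 and 0.71 for Bcat2. For the dehydrogenase complex and its control it was 1.17 for Bckdha, 0.73 for Bckdhb, 1.14 for Dbt, 0.63 for Bckdk and 1.31 for Ppm1k. In the leucine branch it was 1.55 for Ivd, 1.42 for Mccc1, 0.96 for Mccc2 and 1.13 for Auh. In the isoleucine branch it was 0.61 for Acadsb, 0.56 for Hsd17b10 and 1.72 for Acat1. In the valine branch it was 0.63 for Acad8, 1.20 for Hibch, 1.14 for Hibadh and 1.17 for Aldh6a1. Between propionyl-CoA and succinyl-CoA it was 1.14 for Pcca, 0.70 for Pccb, 0.88 for Mcee, 1.09 for Mut, 1.22 for Mmaa and 0.76 for Mmab. For ketone use it was 3.38 for Bdh1 and 1.47 for Oxct1. Among glutamate, GABA and aldehyde enzymes it was 1.5 for Abat. Glud1 and Aldh2 did not pass. The part of the cell-type markers in these differences was not tested.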

How the results depend on the processing

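Counts of members lower than sham at 28 d and at 7 d, of members higher at 28 d than at 7 d, and all other counts of members or of all genes stayed within 1.5 times the reported count under every alternative run, with these exceptions. Members higher at 7 d against sham were 2 in place of 1 with library size alone. Members higher at 28 d against sham were 1 in place of 2 with only the groups compared and without the Adipoq-rich libraries (chosen after seeing the data), and 1 to 2 when a library was left out. Over all genes at 28 d, library size alone gave 2278 lower and 6479 higher, against 3673 and 4233. Its counts at 7 d were within 1.5 times the reported ones, at 3587 and 7410, against 5074 and 5602. That scaling moved the median of all genes to 0.30 at 28 d and 0.40 at 7 d (members -0.85 and -1.88). Bdh1 at 28 d against sham turned sign, to -0.0060 with DESeq2, -0.0066 with DESeq2-type size factors, -0.0301 under the replicate block, -0.19 without the Adipoq-rich libraries, and -0.33 to 0.23 when a library was left out. Glud1 turned to 0.0222 at 28 d and 0.22 at 7 d with library size alone. Same-numbered libraries had correlations of deviations of -0.091 to 0.304, and MI 7 d replicate 1 was closest to MI 28 d replicate 2 (0.454), so the numbers were not taken as pairs; the replicate block gave 26 members lower and 2 higher at 28 d, 27 and 1 at 7 d, and 26 higher and 1 lower at 28 d against 7 d, and changed no member's call. The ratios of Bckdk to Ppm1k, Bcat1 to Bcat2 and Bdh1 to Oxct1 kept their sign with 0.5 in place of 2 added and without each library. Depth limits Bcat1 most, with 11 to 21 counts in sham libraries.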
